A study of Homo sapiens with 18 samples.

Results

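UC7, a human urothelial (bladder) cancer cell line, was exposed to 1 µM rosiglitazone for 24 h, and its expression was compared with that of UC7 control cells over all genes. The comparison used 6 of the 18 bead arrays of the study, 3 with rosiglitazone and 3 controls, chosen by their labels. The labels call the UC7 cells without the drug control, the series' design text calls them untreated, and no vehicle is named. The other arrays hold UC14 cells with a p63 or a non-targeting shRNA and Scaber cells with a STAT3 or a non-targeting siRNA, 3 arrays in each group, and the series asks which genes lie downstream of p63, STAT3 and PPARγ. All cells were grown in serum-containing medium. The result is that of 1 line at 1 dose and 1 time, and nothing in the sources used here states that replicate arrays stem from different cultures. The p-values therefore cover only array-to-array spread within a group, part or all of which could be technical.

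Rosiglitazone is a thiazolidinedione, a drug class that binds and activates the nuclear receptor PPARγ. PPARγ pairs with a retinoid X receptor (RXR) on DNA and, with ligand bound, exchanges corepressors for coactivators. It is best known as the master regulator of fat cells, where it switches on the uptake, binding and storage of fatty acids, and in the urothelium it is known to take part in the differentiation of luminal cells.

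UC7 showed the transcripts of an epithelial line with luminal features, beside some basal and mesenchymal transcripts. The epithelial genes CDH1 and EPCAM, the simple keratins KRT7, KRT8, KRT18 and KRT19 and the uroplakins UPK1A, UPK1B and UPK2 were detected on all 6 arrays, at a detection p under 0.01. The basal keratins KRT5 and KRT14 were detected on 0 of the 6, as were the luminal markers KRT20 and SNX31. The basal keratins KRT6A, KRT6B and KRT17 had no named probe. The basal markers CD44, CDH3 and LAMB3 and the mesenchymal genes SNAI2, TWIST1 and TGFBI were detected on all 6. Other mesenchymal genes were not, with ZEB1, SNAI1 and SPARC detected on 0 arrays and FN1 on 1. Between 19093 and 20440 of the 47323 probes were detected on a UC7 array. Correlation of log2 signals was 0.9964 to 0.9969 within the rosiglitazone arrays, 0.9951 to 0.9964 within the controls and 0.9719 to 0.9744 between the groups.

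FABP4, the fatty acid carrier of adipocytes and a classical PPARγ target, showed the largest rise of all 11446 genes tested. Its log2 signal was 13.21, 13.27 and 13.25 on the rosiglitazone arrays, against 6.60, 6.39 and 6.95 on the control arrays. The groups were far apart, and FABP4 was among the bright probes after treatment, as the raw signals of 10770, 12510 and 12630 with rosiglitazone and 177.8, 164 and 213.6 in controls also show. The rise was 96.8-fold (log2 change 6.60 ± 0.11, SE, n = 3 arrays a group, adjusted p = 2.95e-15 in limma), and its log2 change was 5.85 without background correction.

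The response was broad. Of 11446 genes tested, 4833 passed an adjusted p under 0.05 (42.2%), 2394 of them higher (20.9%) and 2439 lower (21.3%). Most changes were small. In all, 507 genes (4.43%) changed at least 2-fold, 273 higher (2.39%) and 234 lower (2.04%), while 2927 of the called genes changed by less than 0.5 on the log2 scale. The 3 rosiglitazone arrays lay outside the range of the 3 controls for 52% of all genes, above it for 25.7% and below it for 26.3%, so a lack of overlap by itself marks little here. Higher genes made up 49.5% of the calls, and 38.9% when arrays were scaled to a common median in place of quantile normalization. In bulk RNA, fewer cells of a kind and less RNA per cell cannot be told apart.

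The receptors changed little beside their targets. PPARG itself had log2 signals of 10.85, 10.75 and 10.68 with rosiglitazone and 11.20, 11.13 and 11.07 in controls. It was lower in every treated array, by -0.37 ± 0.08 (log2 change, adjusted p = 0.00216), and its further kept probes gave -0.66 and -0.36, the last detected on 0 rosiglitazone and 3 control arrays. RXRA, its main partner, differed by 0.01 ± 0.09 (adjusted p = 0.906), and RXRB and PPARA, by 0.22 and 0.16, did not pass. PPARD was called higher at 0.28, but its 3 probes disagreed, with -0.20 on the probe of opposite sign, and the call was lost at 6 of 17 other settings, among them leaving out rosiglitazone replicates 1 or 3 or control replicate 1. PPARGC1B, a coactivator, rose by 0.84 ± 0.09 (detected on 3 rosiglitazone and 2 control arrays). Of 9 receptor and coregulator genes tested, 3 were higher, 1 lower and 5 not called, against 20.9% and 21.3% of all genes.

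The PPARG level was compared across the controls of the 3 lines in a fit of all 18 arrays; the controls of UC14 and Scaber carry a non-targeting shRNA or siRNA. Its log2 signal averaged 11.13 ± 0.07 in UC7, against 11.92 ± 0.08 in UC14 and 10.36 ± 0.05 in Scaber controls (SD, n = 3 arrays each). UC7 lay between the others, at -0.79 ± 0.08 from UC14 (adjusted p = 1.22e-07) and 0.77 ± 0.08 from Scaber (adjusted p = 1.57e-07). FABP4 stood in the same order, with wider spacing to UC14. Its log2 signal was 6.65 ± 0.28 in UC7 controls, 12.77 ± 0.34 in UC14 controls and 5.97 ± 0.17 in Scaber controls. UC7 lay at -6.12 ± 0.17 from UC14 (adjusted p = 7.26e-15) and 0.68 ± 0.17 from Scaber (adjusted p = 0.00212) for FABP4. UC7 cells with rosiglitazone averaged 13.24 ± 0.03. Differences between lines also hold any difference between experiments, which cannot be told apart.

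Of 45 PPAR lipid target genes, 28 were tested, and 17 of these rose, 6 fell and 5 did not pass (60.7% higher and 21.4% lower). The shares over all genes were 20.9% higher and 21.3% lower, and they apply beside every list that follows. The median log2 change was 0.40 over the 28, 0.18 over the 41 with a named probe when no detection filter was set, and -0.000272 over all genes. FABP3 and G0S2 each passed the filter through 1 group alone, so their calls were fixed by it in part. Among fatty acid carriers and uptake proteins, CD36, the scavenger receptor that takes up fatty acids, had log2 signals of 10.54, 10.63 and 10.53 with rosiglitazone and 8.86, 8.70 and 8.87 in controls. FABP5, the epidermal fatty acid carrier, had 10.77, 10.89 and 10.98 against 9.14, 9.23 and 9.26. The groups were separate for both, with rises of 1.76 ± 0.08 and 1.67 ± 0.09 on the log2 scale (adjusted p = 1.78e-10 and 3.44e-10). FABP3, the muscle carrier, was detected on 3 rosiglitazone and 0 control arrays and was at least 1.47-fold higher.

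Enzymes that activate fatty acids or build glycerolipids went both ways. ACSL5, an acyl-CoA synthetase, rose by 1.38 ± 0.08 (1.27 and 0.31 on its other probes) and ACSL1 by 0.39. The glycerolipid enzyme AGPAT2 rose by 0.50 on its brightest probe and by 1.69 and 0.59 on the others. DGAT1 and DGAT2, which make triglycerides, differed by 0.11 and 0.22 (adjusted p = 0.344 and 0.0922), and the synthetase ACSL4 fell by 1.11 ± 0.10 (-0.29 on its other probe). UCP2, a carrier of the inner mitochondrial membrane, had log2 signals of 9.46, 9.30 and 9.44 with rosiglitazone and 6.94, 6.76 and 6.98 in controls, a rise of 2.50 ± 0.09 (adjusted p = 7.06e-12). PDK4, the kinase that turns off pyruvate dehydrogenase, rose by 0.96 ± 0.11, the triglyceride lipase PNPLA2 by 1.06 ± 0.09 and the glycerol channel AQP3 by 1.09 ± 0.10. ANGPTL4, a secreted inhibitor of lipoprotein lipase, rose by 0.78 ± 0.09 (0.36 on its other probe). The list did not move as a block. LPL, lipoprotein lipase itself, fell by 1.03 ± 0.08 (log2 signals of 6.15, 6.03 and 5.95 with rosiglitazone and 7.10, 7.02 and 7.08 in controls), and G0S2, an inhibitor of PNPLA2, was at least 1.15-fold lower and undetected after treatment. CYP1A1, listed here but best known as a target of the aryl hydrocarbon receptor, fell by 1.95 ± 0.10. PLIN2, a coat protein of lipid droplets, was called lower at -0.24, a call that its other probe (-0.03) did not share and that 5 of 17 settings ended, among them leaving out rosiglitazone replicates 1 or 3 or control replicate 2. LPIN1, at 0.22, lost its call at 11 settings, 5 of them those without 1 of the 6 arrays (all but control replicate 3). HILPDA, at 0.38, lost its call with the spread pooled over 18 arrays and under median scaling, and SLC27A2, at -0.36, without rosiglitazone replicate 3 or control replicate 1.

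**Figure D1:**
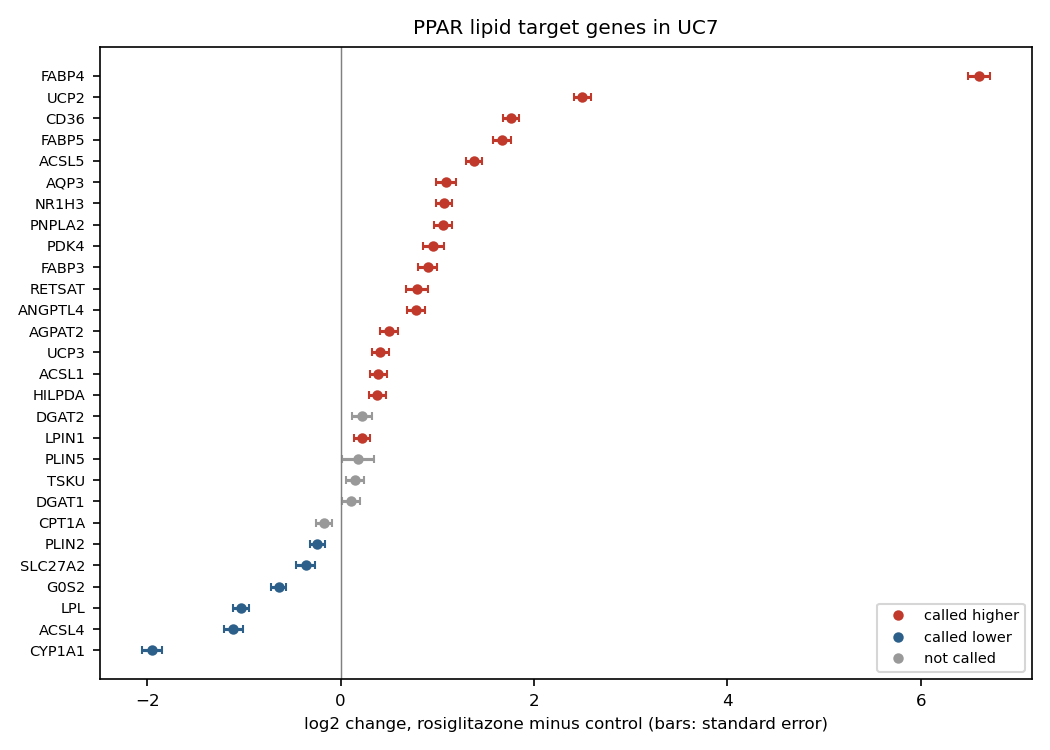
Log2 change (rosiglitazone minus control) of the 28 tested PPAR lipid target genes in UC7, with points for the change in the limma fit of 3 arrays a group and bars for its standard error. FABP4 stands at 6.60, UCP2 at 2.50 and CYP1A1 at -1.95, and 17 genes were called higher and 6 lower.

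Fatty acid oxidation genes were called higher more often than lower. Of 12 tested genes of the peroxisomal list 8 rose, 0 fell and 4 did not pass (66.7% higher, median log2 change 0.47). CRAT, carnitine acetyltransferase, rose by 1.59 ± 0.09, and PEX11A, which acts in peroxisome division, by 1.10 ± 0.10 (0.98 and 0.66 without background correction). The oxidase ACOX3 rose by 0.80 and the thiolase ACAA1 by 0.57. Of 20 mitochondrial genes 10 rose, 2 fell and 8 did not pass (50% higher and 10% lower, median 0.23). HADH, a dehydrogenase of the oxidation spiral, rose by 0.75 ± 0.08, the carnitine palmitoyltransferase CPT2 by 0.71 and the dehydrogenase ACADM by 0.58. CPT1A, the rate-limiting enzyme of fatty acid entry and a known PPAR target, differed by -0.17 (adjusted p = 0.0889). ECI2, an enoyl-CoA isomerase counted in the mitochondrial list alone, went the other way. Its log2 signals were 5.47 to 5.62 with rosiglitazone and 6.96 to 7.12 in controls. The fall was 1.47 ± 0.08, or 0.81 without background correction, and 0.93 on its other probe.

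Sterol synthesis rose as well. Of 17 tested genes of cholesterol synthesis and uptake, 12 rose, 0 fell and 5 did not pass (70.6% higher, median 0.52). TM7SF2, a sterol reductase, rose by 1.01 ± 0.09, the synthase HMGCS1 by 0.86 ± 0.08, the decarboxylase MVD by 0.79 ± 0.09 and the epoxidase SQLE by 0.69 ± 0.09. HMGCS1 showed the pattern of this group, with log2 signals of 9.89, 9.99 and 9.82 with rosiglitazone and 8.97, 9.10 and 9.06 in controls. In fatty acid synthesis the desaturase SCD stood out, at 10.26, 10.09 and 10.30 with rosiglitazone and 8.71, 8.55 and 8.58 in controls (log2 change 1.60 ± 0.09). FASN rose by 0.56, whereas ACLY and ACACA differed by -0.02 and 0.02 (adjusted p = 0.888 and 0.918) and the malic enzyme ME1 fell by 0.86 ± 0.09, so that of 13 genes 5 rose, 3 fell and 5 did not pass. Of 5 genes of cholesterol efflux and LXR action, 4 were called higher and 1 lower. The sterol-sensing receptor NR1H3 (LXRα), a known PPARγ target, rose by 1.07 ± 0.08, and the LXR targets MYLIP and LPCAT3 by 1.61 ± 0.09 and 0.93 ± 0.09. ABCA1, the best-known LXR target, was called higher at 0.25 ± 0.08, a call lost at 7 of 17 settings, among them without rosiglitazone replicates 1 or 2 or control replicates 2 or 3. The efflux pump ABCG1 gave -0.35 on its brighter probe and 0.63 on the other, so no direction can be given for it.

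The largest changes outside the lipid list gave a mixed picture of urothelial, squamous and secreted products. ACSBG1, an acyl-CoA synthetase, had log2 signals of 9.40, 9.36 and 9.55 with rosiglitazone and 5.55, 5.37 and 5.63 in controls, a 15.1-fold rise. NRAD1, a long non-coding RNA, rose 11.4-fold (11.04, 10.88 and 10.75 against 7.46, 7.18 and 7.50) and HOPX, a homeodomain protein without DNA binding, 10.5-fold. On the probes used, these 3 genes were detected on all 6 arrays, and their groups lay more than 2-fold apart at the nearest arrays. The other kept probes of NRAD1 and HOPX rose by 2.92 and 1.32 on the log2 scale. That of HOPX was detected on 0 control arrays. HPGD, the enzyme that inactivates prostaglandins, had 12.83, 12.63 and 12.68 with rosiglitazone and 9.53, 9.35 and 9.33 in controls (9.88-fold, log2 change 3.30 ± 0.09). TIMP3, an inhibitor of metalloproteinases, rose 8.60-fold, the carcinoembryonic antigen CEACAM5 7.48-fold, PLAAT4, a retinoid-inducible phospholipase, 7.39-fold, the death ligand TNFSF10 (TRAIL) 6.59-fold and the transcription factor GATA2 6.14-fold. PLA2G2A, a secreted phospholipase, was detected on 1 control array and rose by 2.92 ± 0.11 on the log2 scale.

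F3, tissue factor, the cell-surface starter of blood clotting, fell most. Its log2 signal was 6.89, 7.13 and 7.25 with rosiglitazone and 10.43, 10.55 and 10.27 in controls, 10.1-fold lower (log2 change -3.33 ± 0.10, adjusted p = 1.63e-12). NT5E (CD73), the ectoenzyme that makes adenosine, was 8.66-fold lower, the receptor tyrosine kinase AXL 7.05-fold and the annexin ANXA10 6.82-fold. SNAI2, a repressor of epithelial genes, had 6.47, 6.53 and 6.48 with rosiglitazone and 9.44, 9.06 and 9.13 in controls, 6.58-fold lower. Also among the 15 largest falls were the glycoprotein STC2 (log2 change -2.61), the ubiquitin ligase MARCHF4 (-2.61), the microRNA host transcript MIR100HG (-2.39), the prostaglandin carrier SLCO2A1 (-2.36), the transcription factor SOX9 (-2.32), the matrix protein TGFBI (-2.31) and the insulin receptor substrate IRS1 (-2.27). All 30 genes in these groups of largest changes had separate arrays by the rule that chose them, and each was called at every other setting tried. Without background correction dim genes moved less, with log2 changes of 2.74 for ACSBG1, 2.36 for HOPX, 1.86 for CEACAM5, 1.63 for PLA2G2A, 1.92 for TNFSF10, -2.28 for NT5E, -1.88 for AXL, -1.90 for ANXA10, -2.04 for SNAI2, -1.93 for MARCHF4, -1.40 for MIR100HG, -1.52 for SLCO2A1 and -1.26 for IRS1.

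**Figure D2:**
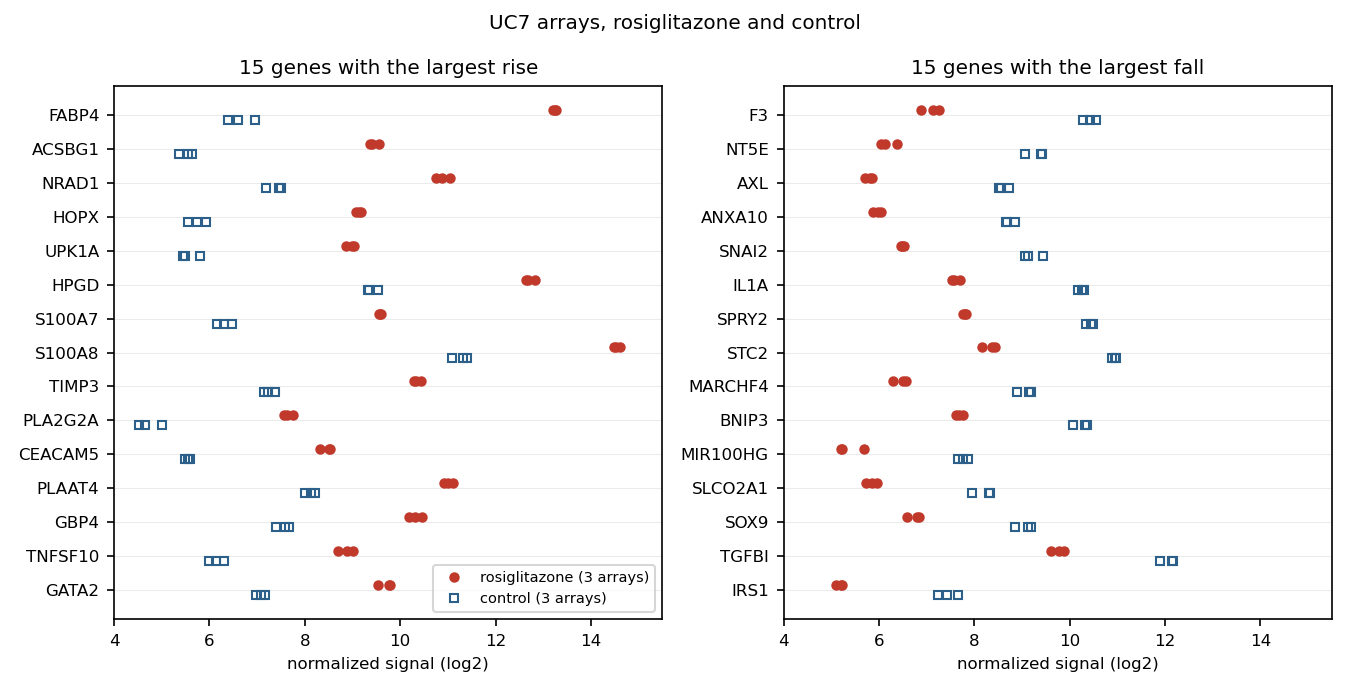
Normalized log2 signal of the 15 genes with the largest rise (left panel) and the 15 with the largest fall (right panel) in UC7, with 1 point for each array, filled circles for rosiglitazone and open squares for control. FABP4 lies at 13.21 or above with rosiglitazone and at 6.95 or below in controls, and no gene shows an overlap between groups.

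Most luminal markers of the urothelium were called higher, and simple keratins were not among them. Of 22 luminal markers tested, 14 rose, 5 fell and 3 did not pass (63.6% higher and 22.7% lower, median log2 change 0.58). Their summed signal, to which bright genes such as KRT19 add most, overlapped between the groups, at 55600 to 59000 with rosiglitazone and 51800 to 58100 in controls. UPK1A, a tetraspanin of the urothelial plaque, had log2 signals of 9.03, 8.87 and 8.99 with rosiglitazone and 5.81, 5.48 and 5.45 in controls, 10.4-fold higher (log2 change 3.38 ± 0.10, or 2.29 without background correction). UPK2 had 8.28, 8.19 and 8.24 against 6.73, 6.63 and 6.75 (1.53 ± 0.08), UPK1B rose by 0.97 ± 0.09, and UPK3A, undetected in controls, was at least 1.66-fold higher. UPK3A passed the detection filter only through the rosiglitazone arrays, which fixes its direction, and UPK3B, detected on at most 2 arrays, was not tested. PSCA, a surface antigen of urothelium, rose by 2.32 ± 0.08 (1.71 without background correction). The receptors ERBB3 and ERBB2 rose by 1.29 ± 0.08 and 1.01 ± 0.08, with 0.56 and 0.39 on the other kept probes of ERBB3. The epithelial transcription factors GRHL3, ELF3, KLF5 and GATA3 rose by 1.13, 0.96, 0.63 and 0.40. The largest fall of the list was that of CYP2J2, a cytochrome P450 epoxygenase, by 0.46 ± 0.08 (adjusted p = 0.000215), called at every setting. KRT7, KRT8, KRT18 and FOXA1, a luminal transcription factor, moved by -0.27, -0.28, -0.36 and -0.27. Of these smaller falls that of KRT8 was not called at 4 settings, without rosiglitazone replicate 3 or control replicate 2 among them, that of FOXA1 was not called without rosiglitazone replicate 3, and that of KRT18 was not called with the spread pooled over 18 arrays.

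Basal markers mostly fell. Of 8 tested, 5 fell, 1 rose and 2 did not pass (62.5% lower, median -0.78), beside 21.3% lower over all genes. Without the detection filter the median was -0.36 over 11 members. CD44, the hyaluronan receptor of basal cells, had log2 signals of 10.10, 9.99 and 10.05 with rosiglitazone and 11.69, 11.72 and 11.61 in controls (log2 change -1.63 ± 0.08). The cadherin CDH3 fell by 1.22 ± 0.08, the laminin chain LAMB3 by 0.79 and the integrin ITGA6 by 0.77. KRT6C, detected on 2 rosiglitazone arrays, fell by 1.97 ± 0.12, or by 1.04 without background correction, and its probe may share signal with the near-identical keratin 6 copies. KRT16, a keratin of activated epidermis, rose instead, at 7.18, 7.48 and 7.28 with rosiglitazone and 5.59, 5.75 and 5.70 in controls (1.63 ± 0.09, or 0.94 without background correction).

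Several squamous and barrier genes rose too. Of 11 tested, 7 rose, 1 fell and 3 did not pass (63.6% higher, median 1.28), beside 20.9% higher over all genes. Without the detection filter the median was 0.12 over 17 members, 7 of them higher and 2 lower. S100A8 and S100A9, which form the antimicrobial protein calprotectin, were among the brightest probes after treatment. S100A8 had log2 signals of 14.52, 14.48 and 14.60 with rosiglitazone and 11.41, 11.09 and 11.31 in controls, 9.60-fold higher, and S100A9 rose by 2.01 ± 0.08. The raw S100A8 signal reached 28490 on a rosiglitazone array whose brightest probe had 34635. S100A7 (psoriasin) rose 9.59-fold (2.47 on the log2 scale without background correction), the mucosal keratin KRT13 by 1.97 ± 0.09 (1.12 without it), SPRR1A by 1.59 ± 0.11 and SPRR3 by 1.28 ± 0.08. SPRR2A, detected on 2 rosiglitazone arrays, fell by 0.94 ± 0.09, and the crosslinking enzyme TGM1 differed by -0.03 (adjusted p = 0.835).

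**Figure D3:**
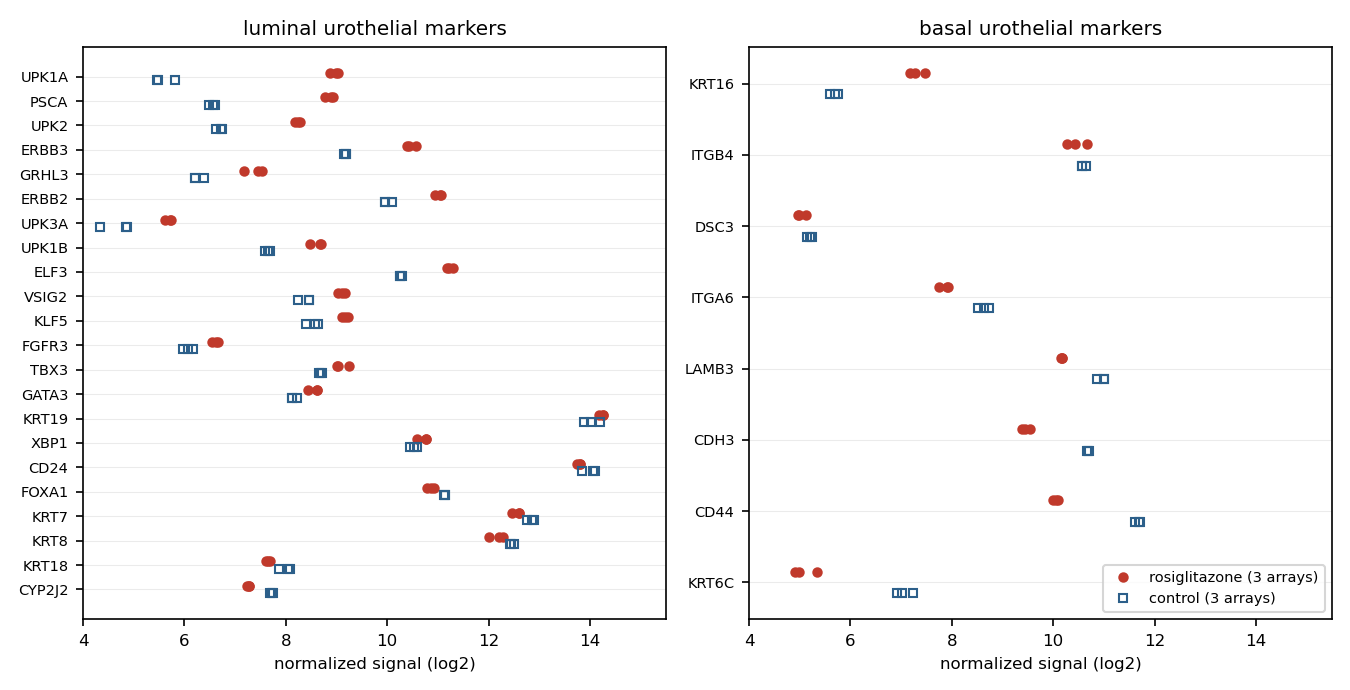
Normalized log2 signal of the 22 luminal (left panel) and 8 basal (right panel) urothelial markers tested in UC7, with 1 point for each array, filled circles for rosiglitazone and open squares for control. UPK1A, PSCA and UPK2 lie to the right of their controls, and KRT6C, CD44 and CDH3 to the left.

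Mesenchymal genes fell in part. Of 9 tested, 5 fell, 2 rose and 2 did not pass (55.6% lower and 22.2% higher, median -0.84), beside 21.3% lower and 20.9% higher over all genes. Beside SNAI2 and TGFBI, the collagen COL5A1 fell by 1.24 ± 0.08, the transcription factor TWIST1 by 0.99 ± 0.09 and N-cadherin (CDH2) by 0.84 ± 0.09. S100A4 and ZEB2 rose, by 1.15 ± 0.09 and 0.68 ± 0.10, and ZEB2 was detected on 2 control arrays. The list's median was -0.13 without the detection filter, which adds 4 dim members. Junction genes showed no common direction, with 4 higher, 3 lower and 4 not called of 11. PKP3, a desmosomal plaque protein, rose by 1.51 ± 0.08 (0.80 without background correction), and E-cadherin (CDH1) differed by 0.00 ± 0.08 (adjusted p = 0.97). JUP, plakoglobin, gave -0.33 on its brightest probe and 0.97 and 1.38 on its 2 others.

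Most feedback genes of the ERK pathway fell. They are induced by growth factor signalling through ERK and restrain it or carry it on. Of 15 tested, 12 fell, 0 rose and 3 did not pass (80% lower, median -0.84). SPRY2, an inhibitor of receptor tyrosine kinase signalling, had log2 signals of 7.82, 7.81 and 7.77 with rosiglitazone and 10.35, 10.49 and 10.45 in controls, 6.20-fold lower (log2 change -2.63 ± 0.08). DUSP6, the ERK phosphatase, had 6.24 to 6.51 with rosiglitazone and 7.87 to 8.04 in controls, a fall of 1.57 ± 0.09. Both groups of arrays were tight and separate. The other kept DUSP6 probe, detected on 0 rosiglitazone arrays, fell by 0.82, and the main DUSP6 probe fell by 1.04 without background correction. FOSL1, a subunit of the AP-1 transcription factor, fell by 2.17 ± 0.09, IER3 by 2.02 ± 0.09, SPRY4 by 1.33 ± 0.08 and EGR1 by 1.19 ± 0.09, whereas FOS and ETV4 differed by 0.08 and -0.12 (adjusted p = 0.531 and 0.406).

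In the EGFR family, 2 ligands fell and ERBB2 and ERBB3 rose. The ligands EREG and TGFA fell by 0.92 ± 0.11 and 0.81 ± 0.10, and EGFR itself gave -0.84 ± 0.09 on its brighter probe but 0.12 on the other. HBEGF was called lower at -0.24, a call lost with the spread pooled over 18 arrays and without rosiglitazone replicates 2 or 3 or control replicates 1 or 2. The ligand BTC differed by 0.17 (adjusted p = 0.188). Of 7 genes in the list 4 were lower, 2 higher and 1 not called.

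Few cell cycle genes passed the test. Of 23 genes of G1 and S phase 6 fell (26.1%), 0 rose and 17 did not pass, and of 22 genes of G2 and mitosis 1 rose, 1 fell and 20 did not pass, beside 20.9% higher and 21.3% lower among all genes. Cyclin D1 (CCND1) had log2 signals of 12.88, 12.79 and 12.85 with rosiglitazone and 13.78, 13.95 and 13.82 in controls, a fall of 1.01 ± 0.08. Its partner kinase CDK6 fell by 0.83 ± 0.08 and the thymidine kinase TK1 by 0.49 ± 0.09. The proliferation marker MKI67 differed by -0.06 ± 0.09 (adjusted p = 0.618), and the 2 mitotic calls, CDC20 (0.22) and CENPE (-0.25), were lost at 10 and 3 of 17 settings, including without rosiglitazone replicates 1 or 3 or control replicate 2 for both. The CDK inhibitors CDKN1A and CDKN1B differed by -0.08 and -0.13 without passing, and CDKN1C, detected on 1 control array, rose by 0.84 ± 0.09. Of 16 CDK inhibitors and p53 targets 5 were called higher, 4 lower and 7 not called. Among p53 targets ZMAT3 rose by 0.57 ± 0.14 (0.41 and 0.30 on its other probes), GADD45A fell by 1.47 ± 0.08 and TP53I3 by 1.17 ± 0.11, and BAX gave 1.94 on 1 probe and 0.02 on the other.

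Most hypoxia and glycolysis genes fell. Of 16 tested, 13 fell, 1 rose and 2 did not pass (81.2% lower, median -0.60). BNIP3, a mitophagy receptor induced by low oxygen, had log2 signals of 7.76, 7.62 and 7.68 with rosiglitazone and 10.33, 10.36 and 10.06 in controls, 5.90-fold lower. The peptide hormone ADM fell by 1.11 ± 0.10, the prolyl hydroxylase subunit P4HA1 by 1.03 ± 0.08 and the enolase ENO2 by 0.87 ± 0.08. The glucose transporter SLC2A1 fell by 0.46 and LDHA by 0.32, and PGK1 and VEGFA did not pass (-0.10 and -0.24). The member called higher, HK2 (0.24), lost its call at 9 settings, among them without rosiglitazone replicates 1 or 2 or control replicates 1 or 2.

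Stress pathways were lower in part. Of 11 genes of the NRF2 and aryl hydrocarbon responses 8 fell, 1 rose and 2 did not pass (72.7% lower). The aryl hydrocarbon receptor targets CYP1B1 and TIPARP fell by 1.59 ± 0.08 and 0.95 ± 0.08 along with CYP1A1, and thioredoxin reductase TXNRD1 by 0.85 ± 0.09. Haem oxygenase HMOX1 was the member that rose, at 8.63, 8.62 and 8.65 with rosiglitazone and 7.44, 7.32 and 7.49 in controls (1.22 ± 0.08). Of 15 genes of amino acid stress and the unfolded protein response 6 fell, 1 rose and 8 did not pass (40% lower), led by TRIB3 (-0.84 ± 0.09) and the serine synthesis enzyme PSAT1 (-0.79 ± 0.09).

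Inflammatory genes went both ways. Of 18 tested, 8 rose, 7 fell and 3 did not pass (44.4% higher and 38.9% lower). Both forms of IL-1 and the cytokines IL6 and LIF fell. IL1A had log2 signals of 7.54, 7.69 and 7.57 with rosiglitazone and 10.18, 10.30 and 10.26 in controls, 6.25-fold lower, IL6 had 8.29, 8.57 and 8.47 against 10.49, 10.69 and 10.58 (log2 change -2.14 ± 0.09), IL1B fell by 1.90 ± 0.09 and LIF by 1.44 ± 0.08 (0.75 without background correction). PTGS2, which makes prostaglandins, fell by 0.47 ± 0.09. Among those that rose were TNFAIP2 (1.97 ± 0.10) and the chemokines CCL20 (1.33 ± 0.08, or 0.73 without background correction), CXCL5 (1.16 ± 0.09) and CCL5 (1.10 ± 0.11), while the chemokines CXCL2 and CXCL8 were lower, at -0.59 and -0.25.

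Most interferon response genes rose. Of 25 tested, 18 rose, 1 fell and 6 did not pass (72% higher and 4% lower, median 0.69, or 0.44 without background correction). OAS1, an antiviral nucleotide synthetase, had log2 signals of 9.08, 9.40 and 9.21 with rosiglitazone and 6.71, 6.94 and 7.25 in controls, a rise of 2.26 ± 0.12. The antiviral GTPase MX1 rose by 1.61 ± 0.09, OASL by 1.18 ± 0.11, OAS3 by 1.03 ± 0.09 and the peptide transporter TAP1 by 0.69 ± 0.08. OAS2, undetected in controls, was at least 1.67-fold higher. It passed the detection filter only through the rosiglitazone arrays, which fixes its direction. IFIT2 and IFIT3 differed by 0.15 and 0.04 (adjusted p = 0.207 and 0.804), and the chemokine CXCL10 fell by 0.42 ± 0.10. GBP4, a guanylate-binding protein known to be induced by interferon, rose 6.81-fold, at 10.46, 10.18 and 10.31 with rosiglitazone and 7.39, 7.66 and 7.59 in controls.

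**Figure D4:**
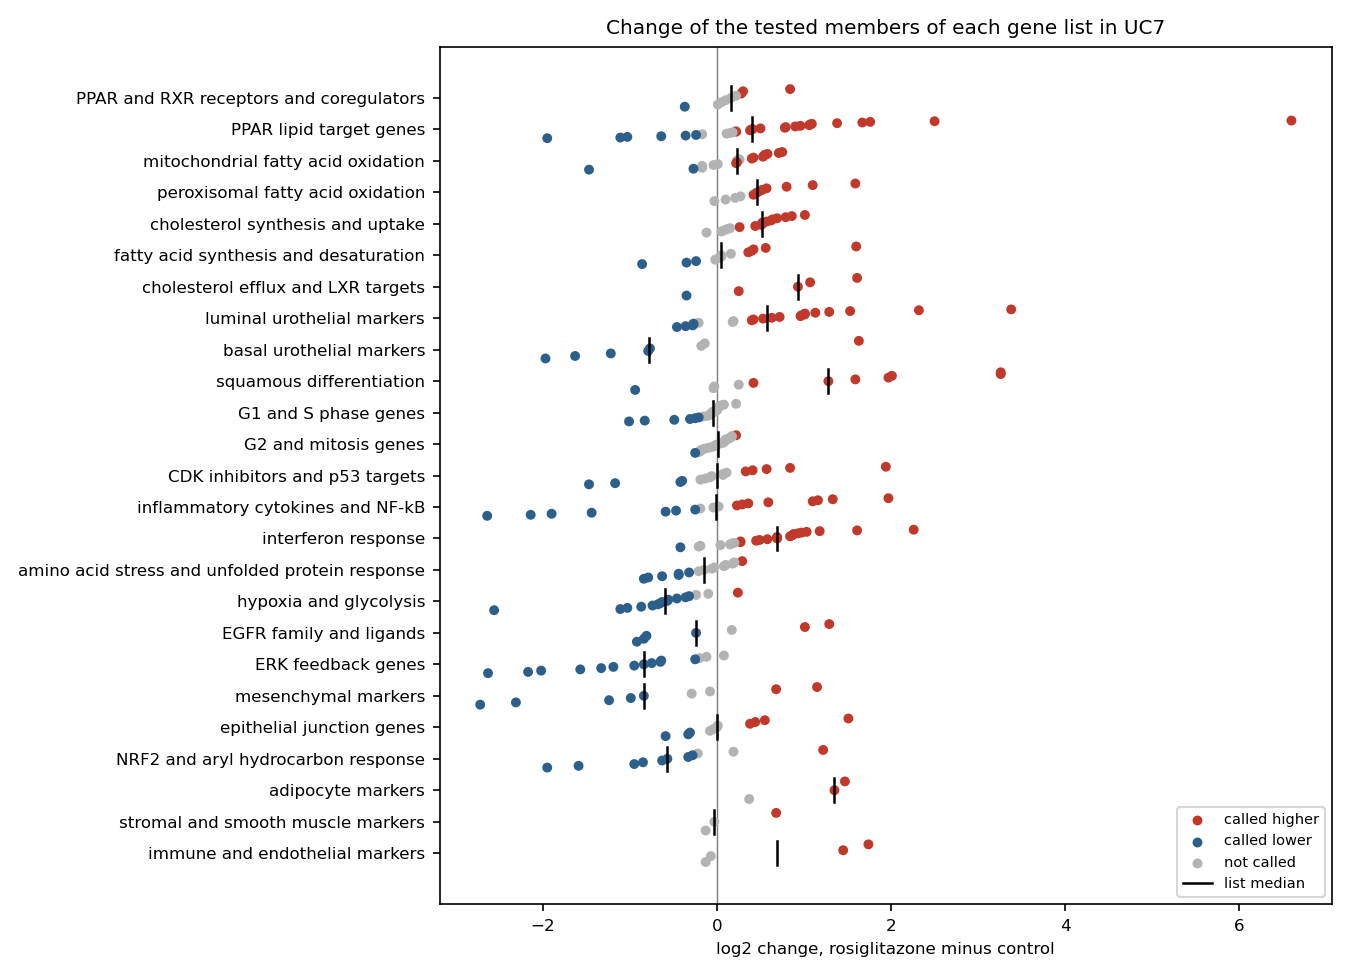
Log2 change (rosiglitazone minus control) of each tested member of the 25 gene lists in UC7, with 1 point for each gene, coloured by its call in limma, and a vertical line at the list's median. Medians are 0.69 for interferon response, 0.52 for cholesterol synthesis and uptake, -0.84 for ERK feedback and -0.60 for hypoxia and glycolysis, and the mitotic genes lie around 0.01.

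The promoters of genes that moved together were searched for short motifs in RefSeq sequence (GRCh38.p14), from 250 bases before to 50 after the start of transcription, on both strands. PPARγ with RXR is known to bind a direct repeat, AGGTCA followed by any 1 base and AGGTCA again, which stood in 6 of 27305 promoters (0.022%) and in 0 of 200 of genes higher at least 2-fold and 0 of 185 of genes lower at least 2-fold. Its hexamer AGGTCA, contained in the repeat, stood in 13.9% of all promoters, in 9.84% of those of genes tested, in 19% of those higher at least 2-fold, in 8.11% of those lower at least 2-fold and in 4 of 14 of the PPAR lipid targets that rose. The interferon response element core, GAAA followed by any 2 bases and GAAA again, stood in 3.65% of all promoters and in 2.87% of those of genes tested. It stood in 6.5% of those higher at least 2-fold, in 1.08% of those lower at least 2-fold and in 9 of 15 (60%) of those of the interferon genes that rose. No share was taken for interferon genes that did not rise, so this share cannot be tied to the rise. The sterol element core TCACNCCAC stood in 1.15% of all promoters and in 0 of 11 of those of the sterol genes that rose. These are matches of letters, not sites shown to be bound. The following 5 promoters are shown as examples of risen genes with a match, on the strand of the gene and with the match in capitals. ACSL5 (chr10:112375018-112375317, plus strand) and NR1H3 (chr11:47248050-47248349, plus strand) hold the hexamer AGGTCA. MX1 (chr21:41420308-41420607, plus strand), OAS3 (chr12:112938224-112938523, plus strand) and GBP4 (chr1:89198893-89199192, minus strand) hold the interferon core, which GBP4 carries on the opposite strand and OAS3 in 2 places.
ACSL5: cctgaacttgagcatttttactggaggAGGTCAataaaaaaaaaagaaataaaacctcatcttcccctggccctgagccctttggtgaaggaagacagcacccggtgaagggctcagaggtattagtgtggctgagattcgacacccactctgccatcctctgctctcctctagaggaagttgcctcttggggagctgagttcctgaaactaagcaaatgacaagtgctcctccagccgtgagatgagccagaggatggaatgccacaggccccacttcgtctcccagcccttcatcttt
NR1H3: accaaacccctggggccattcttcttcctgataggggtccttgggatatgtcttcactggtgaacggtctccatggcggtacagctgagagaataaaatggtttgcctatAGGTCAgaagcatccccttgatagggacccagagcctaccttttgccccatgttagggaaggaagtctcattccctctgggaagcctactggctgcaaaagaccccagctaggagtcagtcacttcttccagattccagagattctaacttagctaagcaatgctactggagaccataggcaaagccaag
MX1: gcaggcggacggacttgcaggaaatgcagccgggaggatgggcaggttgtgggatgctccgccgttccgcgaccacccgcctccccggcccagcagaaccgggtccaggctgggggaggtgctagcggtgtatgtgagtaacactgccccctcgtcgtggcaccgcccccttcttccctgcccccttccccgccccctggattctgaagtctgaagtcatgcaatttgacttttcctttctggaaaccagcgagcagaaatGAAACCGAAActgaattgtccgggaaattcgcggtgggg
OAS3: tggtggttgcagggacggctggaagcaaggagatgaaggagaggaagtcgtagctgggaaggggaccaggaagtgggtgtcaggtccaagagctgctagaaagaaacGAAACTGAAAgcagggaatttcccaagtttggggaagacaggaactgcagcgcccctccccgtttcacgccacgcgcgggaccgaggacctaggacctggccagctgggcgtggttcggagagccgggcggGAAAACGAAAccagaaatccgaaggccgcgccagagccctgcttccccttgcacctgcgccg
GBP4: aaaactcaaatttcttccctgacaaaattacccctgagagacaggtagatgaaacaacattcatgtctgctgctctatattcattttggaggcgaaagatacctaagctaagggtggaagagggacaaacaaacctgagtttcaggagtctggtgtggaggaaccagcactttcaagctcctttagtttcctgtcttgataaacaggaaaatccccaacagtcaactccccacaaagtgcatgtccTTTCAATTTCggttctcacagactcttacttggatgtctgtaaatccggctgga

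Markers of other cell types were checked beside these results. Of 8 immune and endothelial markers 4 were tested, and 2 rose. PECAM1, an adhesion protein of endothelium and leukocytes, had log2 signals of 7.86, 7.84 and 7.82 with rosiglitazone and 6.02, 6.05 and 6.22 in controls (1.74 ± 0.08, or 1.11 without background correction), and CD14 rose by 1.45 ± 0.09 (0.85 without it). The summed signal of the 4 was 670 to 718 with rosiglitazone and 397 to 545 in controls. PTPRC, CD3E and VWF, which define leukocytes, T cells and endothelium, were detected on 0 of the 6 arrays, and CDH5 on 1. Of 7 adipocyte markers 3 were tested, and the lipase LIPE (1.47 ± 0.13, or 0.75 without background correction) and the complement factor CFD (1.35 ± 0.10, or 0.70) rose, with a summed signal of 361 to 408 against 187 to 296. LIPE, detected on 3 rosiglitazone and 2 control arrays, passed the detection filter through the rosiglitazone arrays alone. Its direction was therefore fixed in part, and it adds to the summed signal. The defining fat cell genes ADIPOQ, PLIN1 and CIDEC were detected on 0 arrays. Of 11 stromal and smooth muscle markers 3 were tested and 1, COL1A2, rose by 0.68 ± 0.09, with a summed signal of 205 to 227 against 168 to 171, and DCN, PDGFRB, MYH11 and DES were detected on 0 arrays.

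The UC7 response to rosiglitazone was set beside the 2 knockdowns of the series, which have their own lines and controls but share the normalization, a comparison chosen after the data were seen. Of the 273 genes higher at least 2-fold in UC7, 180 were also measured in UC14, where 122 (67.8%) were higher and 17 (9.44%) lower with the p63 shRNA, beside 24.4% higher and 21.8% lower (46.2% called) among all 8670 genes measured in both. Of the 234 genes lower at least 2-fold in UC7, 153 were measured in UC14, where 95 (62.1%) were lower and 15 (9.80%) higher. In Scaber with the STAT3 siRNA, 25 (14.5%) of 173 and 45 (24.2%) of 186 moved the same way, and 56 (32.4%) and 32 (17.2%) the opposite way, beside 13.4% higher and 15.2% lower (28.7% called) among 9372 genes. The correlation of log2 changes across genes, which are not independent replicates, was 0.361 between UC7 and UC14 (Pearson, 8670 genes; Spearman 0.291) and -0.00911 between UC7 and Scaber (9372 genes; Spearman 0.0233). The difference between these figures was not tested.

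Directions in UC14 are given for the luminal, PPAR lipid and sterol lists, beside 24.4% higher and 21.8% lower among all genes measured in both. Of 14 luminal markers called higher in UC7, 12 were measured in UC14, with 11 higher and 1 lower. The 5 luminal markers called lower in UC7 were all measured in UC14, with 3 higher, 1 lower and 1 not called. Of 17 PPAR lipid targets called higher in UC7, 11 were measured in UC14, with 5 higher, 3 lower and 3 not called. Of 6 called lower in UC7, 4 were measured in UC14, with 2 higher, 1 lower and 1 not called. Of 12 sterol genes called higher in UC7, all were measured in UC14, with 2 higher, 8 lower and 2 not called. FABP5 changed by 1.67 in UC7 and -1.17 in UC14 (log2 changes), SCD by 1.60 and -1.46, SQLE by 0.69 and -1.18 and FASN by 0.56 and -0.98. The difference between these lists was not tested. UPK1A changed by 3.38 ± 0.10 in UC7 and by 3.94 ± 0.18 in UC14 (log2 changes), HPGD by 3.30 and 4.80, UCP2 by 2.50 and 4.39, PSCA by 2.32 and 6.51, and GATA2 by 2.62 and 3.14. IL1A changed by -2.64 in UC7 and -4.41 in UC14, NT5E by -3.11 and -3.42, SNAI2 by -2.72 and -2.43 and TGFBI by -2.31 and -2.33. Of these, UPK1A was detected on 0 UC14 control arrays, HPGD on 1, and NT5E on 0 arrays with the p63 shRNA. UPK2, another luminal marker, was also detected on 0 UC14 control arrays. Such genes passed the filter in UC14 through 1 group alone, which fixes their direction there in part. Of the 30 genes with the largest changes in UC7, 22 were measured in UC14, and 17 changed there in the same direction, 4 in the opposite direction and 1 (ANXA10, -0.12) without a call. The 4 exceptions were FABP4 (-2.18 ± 0.20 in UC14), S100A8 (-1.72 ± 0.12), TIMP3 (-1.34 ± 0.14) and TNFSF10 (-1.21 ± 0.22).

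**Figure D5:**
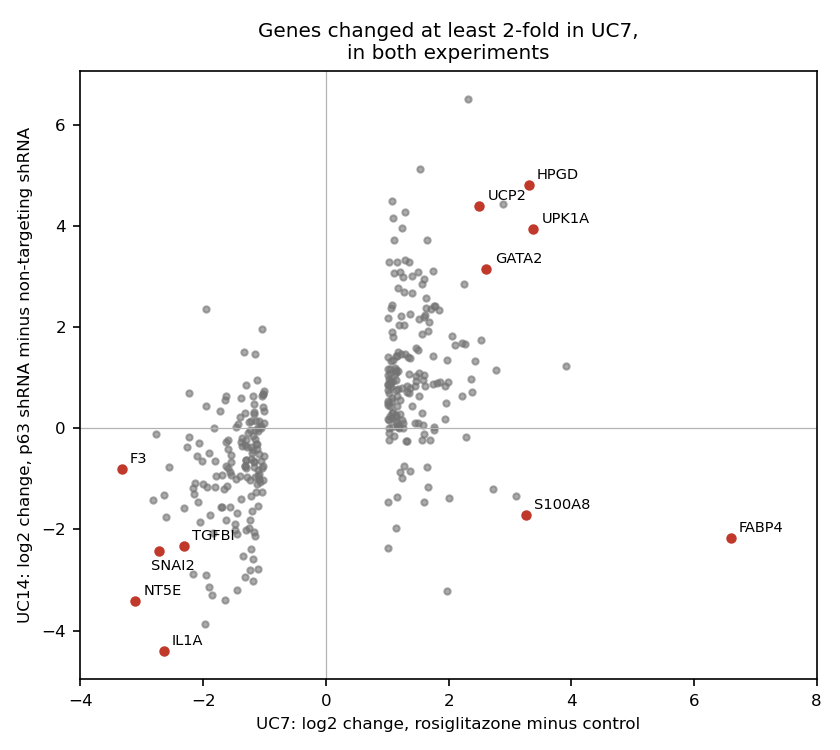
Log2 change with rosiglitazone in UC7 (horizontal axis) against log2 change with the p63 shRNA in UC14 (vertical axis) for the genes that changed at least 2-fold in UC7 and were measured in UC14, 1 point each, with some genes of the text in red. Most points lie where both changes have the same sign, and FABP4, at 6.60 and -2.18, lies apart.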

How the data were processed

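Total RNA of 18 samples was measured on Illumina bead arrays after amplification to biotinylated cRNA. Per the file headers, the authors exported non-normalized signal intensities and detection p-values from GenomeStudio. They also deposited log2 values, which are quantile normalized over the 18 arrays as judged from the values (the sorted values differ from those of the raw signals by at most 0.00176). Per the submitters' processing notes limma was used, with no version.

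For the values given here, limma (version 3.58.1, under R 4.3.3) corrected the background with neqc, which applies normexp using the detection p-values. An offset of 16, quantile normalization over all 18 arrays and a log2 transform followed. The platform annotation named 30113 of 47323 probes, 8 with several symbols and 17202 not listed were left out, and 0 symbols changed against RefSeq. Probes with a detection p under 0.01 on all 3 arrays of a UC7 group were kept (15413), and a gene was its brightest kept probe (11446 genes, 3152 with further kept probes). A gene detected on fewer than 3 arrays of 1 group passed through the other group alone, which fixes its direction in part. Where 1 group had no detected array, an "at least" fold sets the brighter mean against the higher of the probe's signal and the lowest detected signal of each array. The 2 groups were fitted to the 6 UC7 arrays with lmFit and eBayes (4 residual and 11.3 prior degrees of freedom), two-sided, with Benjamini-Hochberg adjustment over all genes and a threshold of 0.05. Errors beside log2 changes are standard errors of this fit. The spread was not pooled with the other lines, whose arrays were mostly noisier (array weights of 1.05 to 2.46 in UC7, 0.379 to 0.845 in UC14 and 0.480 to 1.97 in Scaber). Array number limits the precision, and no read depth applies.

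In a test on simulated data for this comparison, with 11446 genes, 99% of 100 genes changed by 1 on the log2 scale and 67% of 100 changed by 0.5 were recovered, with 8 false calls. Only these genes were changed there, with independent normal noise, whereas 42.2% of genes were called in the data. The adjusted threshold was therefore stricter in the simulation, and its figures do not give the recovery or false calls of the real comparison. The members of the 25 gene lists, 336 of 438 tested, and the rules were chosen with earlier results of these data known. Named were the PPAR and RXR receptors, the 15 largest rises and falls among called genes with separate arrays, every tested PPAR lipid target, and in each list the called members of largest change, up to 4 in each direction. Other members are given beside them, chosen after their values were seen, as were the comparison with the other lines and the interferon and sterol motifs.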

Additional observations from a re-analysis of the deposited data

How the results depend on the processing

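11 other settings and the removal of each UC7 array were tried. Of 159 named genes called, 135 kept call and direction at every setting, and ABCG1 (0.14) and JUP (0.67) changed sign when probes of 1 gene were averaged, since their probes disagree. With the spread pooled over all 18 arrays, 2975 genes were called (1515 higher and 1460 lower), all among the 4833. The 2-fold counts fell to 250 (130 higher and 120 lower) without background correction and 257 (134 higher and 123 lower) with the authors' deposited values, since both keep the background in the signal. Without background correction the fold of 29 of the named genes called moved by over 1.5 times. Leaving out 1 array gave 4104 to 4761 calls. The count of PPAR lipid targets called higher was 15 to 17 throughout.

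Rosiglitazone and control replicates share numbers, but letters in the titles differ from the numbers for 2 rosiglitazone arrays. Same-numbered arrays did not deviate together (correlations of 0.0573, -0.0166 and 0.11), nor did same-lettered ones (0.0573, -0.0554 and 0.00803). With the replicate number as a block 4942 genes were called, and 4821 with the title letter as a block. Probes near background and the range of bright probes limit the sizes given.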
